A study of Homo sapiens with 24 samples.

Results

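MV4-11 and KG-1a, a pair of established human acute myeloid leukemia (AML) cell lines, were compared in the untreated state. The 8 untreated libraries out of the 24 of the series were chosen by their labels. They are the 4 of MV4-11 and the 4 of KG-1a, with replicates A and B at 8 h and at 24 h in each line. The other 16 libraries come from the same lines under 1 μM 8-chloro-adenosine or 1 μM 8-amino-adenosine. Every group is labelled genotype WT, and both lines grew in Iscove's medium with fetal bovine serum. Each group is 1 established line, so a difference belongs to these lines and not to a class of leukemia. The labels do not say whether the replicates came from separate cultures, so that p-values measure only the spread between these libraries, which may be technical. The libraries hold total RNA of the whole culture, in which fewer cells of a kind and less RNA per cell cannot be told apart.

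AML is a cancer of blood cell precursors that stop at some step of maturation, and its cell lines keep much of the program of the step at which they stopped. MV4-11 is known as a line with monocytic features that carries a fusion of KMT2A, a chromatin regulator that keeps HOXA genes and MEIS1 active, and an activated FLT3 receptor kinase. KG-1a is known as an immature, CD34-positive line derived from KG-1, and it carries a fusion that joins FGFR1OP2 to the receptor kinase FGFR1.

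The table of deposited counts lists 23354 genes. Total counts lay between 20368494 and 22616316 per library in MV4-11 and between 18633963 and 21188154 in KG-1a, and levels are given below as CPM (library-scaled counts, with TMM factors), in the order 8 h A, 8 h B, 24 h A and 24 h B. Means are given with their SD over the 4 libraries of a line, MV4-11 first where a pair of means stands without names, and log2 fold changes are MV4-11 over KG-1a. On log2(CPM + 1), libraries of the same line correlated across genes with r between 0.9985 and 0.9993, and libraries of different lines with r between 0.889 and 0.894. These correlations are across genes, which are not independent replicates. At this depth, 3 counts correspond to between 0.137 and 0.154 CPM in a library. Where every library of a line had 0 counts, folds are lower bounds against 3 counts in each of its libraries.

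With the time point as covariate, the edgeR quasi-likelihood test with Benjamini-Hochberg adjustment over 13362 genes called 11728 genes (87.8%) at an adjusted p under 0.05. Of these, 5917 (44.3%) were higher in MV4-11 and 5811 (43.5%) were higher in KG-1a. Because nearly all genes passed, a second test asked for a difference beyond 2-fold. It called 4876 genes (36.5% of those tested), 2431 (18.2%) higher in MV4-11 and 2445 (18.3%) higher in KG-1a. All counts of list members below use this 2-fold test and are to be read against those shares. A gene entered the tests when it was counted well enough in either line, so listed genes at or near 0 in both lines were not tested. The median log2 fold change over all tested genes was 0.02, and 5058 tested genes (37.9%) differed by less than 0.5 on the log2 scale.

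Among the genes past the 2-fold test, 445 had 0 counts in all 4 KG-1a libraries and 423 had 0 counts in all 4 MV4-11 libraries. At a mean of 30 CPM or more in the other line, 75 genes were at 0 in KG-1a and 80 were at 0 in MV4-11. The plot of mean levels shows these genes along its left and lower edges.

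**Figure D1:**
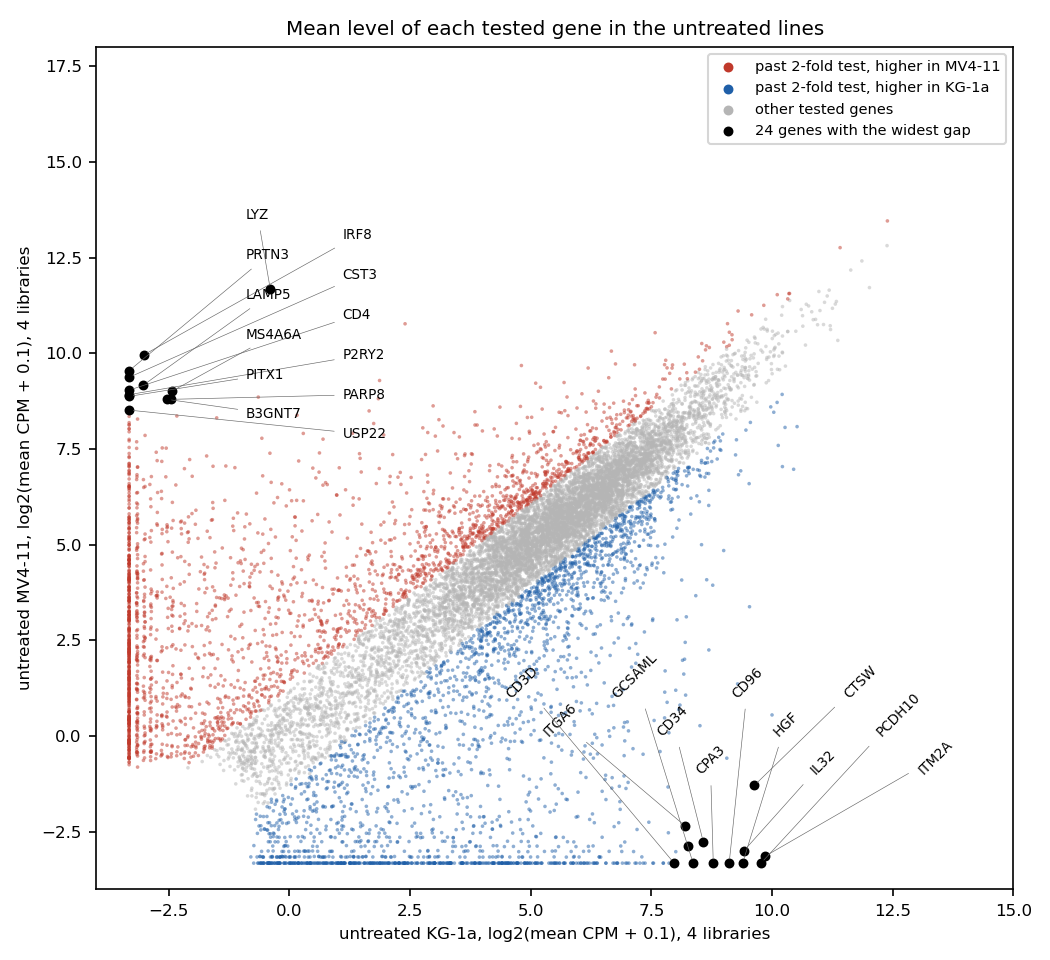
Each point is a tested gene, placed by log2(mean CPM + 0.1) over the 4 untreated libraries of KG-1a (horizontal) and of MV4-11 (vertical). Red and blue points passed the 2-fold test (2431 and 2445 genes), and the 24 black points are the genes with the widest gap between the lines, 12 in each direction, with 1 of them left unlabelled.

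The 12 genes with the widest gap toward MV4-11 were named by a rule on the distance between the lowest library of the higher line and the highest library of the lower line. IRF8, a transcription factor of monocytes and dendritic cells, stood at 1082, 1055, 921 and 913 CPM in MV4-11 and at 0, 0.0456, 0.0476 and 0 CPM in KG-1a. The ratio of MV4-11 to KG-1a was 40556 on 2 counts in the lower line (95% counting interval 11227 to 334890). LYZ, the lysozyme of myeloid cells, stood at 3747, 3128, 2952 and 3194 CPM in MV4-11 and 0.770, 0.683, 0.619 and 0.566 CPM in KG-1a (log2 fold change 12.26, SE 0.09, adjusted p = 7.1e-22). The rule fixes that the lines' libraries do not overlap in these genes.

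CST3, the protease inhibitor cystatin C, read 707, 705, 612 and 623 CPM in MV4-11 and 0 CPM in all 4 libraries in KG-1a, which puts MV4-11 at least 4503-fold higher. CD4, a surface protein of helper T cells that monocytes also carry, read 511, 520.5, 539 and 528 CPM in MV4-11 and 0 CPM in all 4 libraries in KG-1a, at least 3568-fold higher. P2RY2, a receptor for extracellular ATP and UTP, was at least 3288-fold higher, with 483 ± 32.1 CPM (SD, n = 4) in MV4-11 and 0 CPM in all 4 libraries in KG-1a. The serine protease PRTN3 (at least 5074-fold), the homeobox factor PITX1 (at least 3189-fold) and the ubiquitin protease USP22 (at least 2486-fold) were likewise at 0 in every KG-1a library. The remaining genes of the 12 were LAMP5, MS4A6A, PARP8 and B3GNT7, with means of 575, 517, 444 and 444 CPM in MV4-11 and of 0.0228, 0.0861, 0.0837 and 0.0733 CPM in KG-1a.

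Toward KG-1a, the widest gap belonged to ITM2A, a membrane protein of developing T cells and cartilage, with 0.0512, 0, 0 and 0 CPM in MV4-11 and 879, 897, 944 and 963 CPM in KG-1a. The ratio of KG-1a to MV4-11 was 76707 on 1 count in the lower line (95% counting interval 13767 to 3029800). PCDH10, a protocadherin, read 922, 916, 818 and 839 CPM in KG-1a and 0 CPM in all 4 libraries in MV4-11, at least 6059.8-fold higher in KG-1a. HGF, the ligand of the receptor MET, read 656, 681, 674 and 674 CPM in KG-1a and 0 CPM in all 4 libraries in MV4-11, at least 4654-fold higher.

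CD96, a receptor of T and NK cells that is also used as a marker of AML stem cells, read 545, 542, 566 and 559.7 CPM in KG-1a and 0 CPM in all 4 libraries in MV4-11, so that KG-1a was at least 3835-fold higher. CPA3, the mast cell carboxypeptidase, was at least 3052-fold higher, GCSAML at least 2283-fold higher and CD3D, a chain of the T cell receptor complex, at least 1739-fold higher in KG-1a. IL32, a cytokine of T and NK cells, CTSW, a protease of cytotoxic lymphocytes, ITGA6, a laminin-binding integrin, and CD34 were others of the 12, with KG-1a means of 682, 793, 294 and 381 CPM. None of these 4 exceeded 0.472 CPM in an MV4-11 library.

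Lists of genes written from textbook roles were then read one at a time. Stem and progenitor genes were mostly higher in KG-1a. Of 30 listed genes, 22 were tested, 16 of them were more than 2-fold higher in KG-1a and 1 in MV4-11, with a median log2 fold change of -4.53 (genes at 0 in a line set at their bound). CD34, the surface antigen by which hematopoietic progenitors are sorted, read 0.0512, 0.0472, 0 and 0.0922 CPM in MV4-11 and 368, 347, 400.3 and 408 CPM in KG-1a (log2 fold change -12.78, SE 0.10, adjusted p = 1.4e-21). The 24 h libraries of KG-1a were the highest.

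ERG, a transcription factor of blood stem cells, read 0.102, 0.0472, 0.287 and 0.0461 CPM in MV4-11 and 67.3, 69.7, 78.5 and 82.3 CPM in KG-1a (log2 fold change -9.21, SE 0.14, adjusted p = 7.1e-19). GATA2, which is required for stem cell maintenance, read 0.973, 0.896, 1.05 and 1.38 CPM in MV4-11 and 133, 125, 111 and 116 CPM in KG-1a (log2 fold change -6.80, SE 0.09, adjusted p = 1.1e-19). BAALC, a marker of immature AML, averaged 158 ± 10.8 CPM in KG-1a and had 1 count in all MV4-11 libraries together. The stem cell niche factor ANGPT1 (72.3 CPM) and the adhesion receptor ADGRG1 (30.3 CPM) had 0 counts in MV4-11.

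Other progenitor regulators did not all share this direction. LMO2, an adaptor of stem cell transcription complexes, was 2.43-fold higher in MV4-11 (log2 fold change 1.28, SE 0.04, adjusted p = 1.7e-14). MYB was higher in MV4-11 without passing the 2-fold test, at 649 ± 5.03 CPM against 378 ± 17.5 CPM (SD, n = 4, log2 fold change 0.78, SE 0.03, adjusted p = 3.7e-13). KIT, the stem cell factor receptor, was low in both lines with the higher mean in KG-1a, at 2.74 ± 0.171 CPM in MV4-11 and 4.08 ± 0.828 CPM in KG-1a. THY1, MECOM and ALDH1A1, other genes of primitive blood cells, had 0 counts in all 8 libraries.

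Monocyte and macrophage genes were mostly higher in MV4-11, and 26 of the 34 listed were tested. Of these, 21 were more than 2-fold higher in MV4-11 and 2 in KG-1a, with a median of 5.39. The summed level of the list ran from 3944 to 4723 CPM in MV4-11 and from 91.7 to 102 CPM in KG-1a, and LYZ made up most of it in MV4-11. CSF1R, the receptor of macrophage colony-stimulating factor, read 36.2, 38.4, 48.3 and 49.1 CPM in MV4-11 and 0.103, 0.182, 0 and 0.0514 CPM in KG-1a (log2 fold change 8.87, SE 0.17, adjusted p = 2.2e-17). TLR2, a receptor of bacterial lipoproteins, averaged 138 ± 8.56 CPM in MV4-11 and had 0 counts in KG-1a (at least 939-fold higher). CD68, a lysosomal protein of macrophages, averaged 78.7 ± 7.01 CPM and 1.87 ± 0.474 CPM (log2 fold change 5.39, SE 0.08, adjusted p = 5.6e-19).

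The list did not move as a whole. ITGAM, the alpha chain of the monocyte integrin Mac-1, was higher in KG-1a, with 2.05, 2.12, 2.10 and 2.35 CPM in MV4-11 and 9.19, 8.97, 12.05 and 11.8 CPM in KG-1a (log2 fold change -2.28, SE 0.10, adjusted p = 2.1e-12). ITGAX, its relative, was also higher in KG-1a (log2 fold change -1.32, SE 0.09, adjusted p = 2.8e-10). MNDA, a nuclear protein of myeloid cells, gave 1.31 ± 0.328 CPM and 1.47 ± 0.246 CPM (log2 fold change -0.15, SE 0.22, adjusted p = 0.51). CD14, FCN1, S100A12 and CD163, which define mature monocytes and macrophages, were at or near 0 in both lines and were not tested, with CD14 at 0.167 CPM in MV4-11 and 0.349 CPM in KG-1a.

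Granule proteins, the serine proteases and ribonucleases that granulocyte and monocyte precursors store, differed between the lines in every tested gene. Of the 20 listed genes 19 were in the table and 12 were tested, and every tested gene passed the 2-fold test, 9 higher in MV4-11 and 3 higher in KG-1a. ELANE, neutrophil elastase, read 278, 289, 244 and 235 CPM in MV4-11 and 0 CPM in all 4 libraries in KG-1a, at least 1779-fold higher. AZU1, azurocidin, averaged 326 ± 4.98 CPM in MV4-11 and had 0 counts in KG-1a (at least 2219-fold higher), and CTSG, cathepsin G, averaged 233 ± 14.7 CPM and 3.77 ± 0.470 CPM (log2 fold change 5.95, SE 0.06, adjusted p = 2.1e-20).

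MPO, the myeloperoxidase that marks the myeloid lineage in diagnosis, read 11.3, 12.1, 12.5 and 12.9 CPM in MV4-11 and 0.154, 0.0911, 0.143 and 0.617 CPM in KG-1a (log2 fold change 5.61, SE 0.22, adjusted p = 2.1e-13). The 3 genes higher in KG-1a were the protease PRSS57 and the protease inhibitors CST7 and SERPINB1, with log2 fold changes of -2.91, -1.92 and -1.72. Defensins and the late granule genes LTF, LCN2 and CAMP were at or near 0 in both lines.

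AZU1, PRTN3 and ELANE lie close together on chromosome 19, and CTSG lies on chromosome 14. The promoters of AZU1, PRTN3 and CTSG are shown as those of granule genes that were far higher in MV4-11. They are the RefSeq sequences of GRCh38.p14 from 250 bases before to 50 bases after the start, at chr19:827587-827886, plus strand, chr19:840749-841048, plus strand and chr14:24576201-24576500, minus strand. Capitals mark GAGGAA, the core bound by PU.1, and TTGCNNAA, a short form of the C/EBP motif, on either strand.
AZU1: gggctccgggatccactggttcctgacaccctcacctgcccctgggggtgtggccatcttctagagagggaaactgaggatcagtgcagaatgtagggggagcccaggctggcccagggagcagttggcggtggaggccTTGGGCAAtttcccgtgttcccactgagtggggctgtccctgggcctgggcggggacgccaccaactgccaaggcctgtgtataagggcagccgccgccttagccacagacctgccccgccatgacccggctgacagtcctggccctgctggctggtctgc
PRTN3: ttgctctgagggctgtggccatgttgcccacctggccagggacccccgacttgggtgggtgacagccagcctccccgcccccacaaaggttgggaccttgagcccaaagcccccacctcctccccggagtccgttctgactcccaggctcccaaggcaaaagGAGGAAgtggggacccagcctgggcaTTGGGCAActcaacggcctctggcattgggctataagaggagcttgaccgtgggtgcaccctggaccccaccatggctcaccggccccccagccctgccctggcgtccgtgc
CTSG: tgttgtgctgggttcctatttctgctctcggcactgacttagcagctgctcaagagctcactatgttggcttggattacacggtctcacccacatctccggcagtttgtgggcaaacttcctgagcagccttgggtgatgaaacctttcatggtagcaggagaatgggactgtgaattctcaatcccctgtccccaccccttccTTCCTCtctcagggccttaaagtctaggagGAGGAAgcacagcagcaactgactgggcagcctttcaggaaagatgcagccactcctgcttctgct
The PU.1 letters occurred in 27.9% of 35116 promoters of this length and the C/EBP letters in 10.5%. Among the 11 granule genes with a promoter sequence, 5 held the PU.1 letters and 6 held the C/EBP letters. A match is a description of the letters and not a binding site. SPI1, which encodes PU.1, stood at 279, 270.4, 259.6 and 251 CPM in MV4-11 and 7.55, 6.20, 5.86 and 7.15 CPM in KG-1a.

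Transcription factors that set blood lineages split in both directions. Of 33 listed factors 30 were tested, with 13 more than 2-fold higher in MV4-11 and 10 more than 2-fold higher in KG-1a. SPI1 was 39.7-fold higher in MV4-11 (log2 fold change 5.31, SE 0.06, adjusted p = 2.5e-20). CEBPA, a driver of granulocyte and monocyte fate, read 273, 289.6, 249 and 246 CPM in MV4-11 and 78.3, 77.95, 71.1 and 83.2 CPM in KG-1a (log2 fold change 1.77, SE 0.05, adjusted p = 2.6e-15). CEBPD averaged 44.2 ± 3.24 CPM and 0.0733 ± 0.0919 CPM, and IRF4 16.9 ± 3.29 CPM and 0.195 ± 0.0558 CPM.

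On the KG-1a side, GATA3, a factor of T cells, mast cells and early progenitors, averaged 56.7 ± 3.69 CPM and had 0 counts in MV4-11 (at least 393-fold higher in KG-1a). GFI1B is a transcriptional repressor that acts in the erythroid and megakaryocyte lineages. It read 73.4, 71.9, 70.8 and 78.8 CPM in KG-1a and at most 0.0512 CPM in MV4-11. The related repressors ZEB1 and ZEB2 went in opposite directions. ZEB1 read 0.154, 0.424, 0.574 and 0.507 CPM in MV4-11 and 59.2, 72.03, 65.2 and 65.4 CPM in KG-1a (log2 fold change -7.27, SE 0.14, adjusted p = 1.7e-17), and ZEB2 read 566, 573, 649 and 621 CPM in MV4-11 and 48.5, 52.7, 51.5 and 53.5 CPM in KG-1a (log2 fold change 3.54, SE 0.04, adjusted p = 3.2e-20).

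HOX genes encode positional factors that sit in clusters and mark the self-renewal program of many leukemias, and MEIS and PBX proteins are their cofactors. Of 26 listed genes 19 were tested, 9 were more than 2-fold higher in KG-1a and 7 in MV4-11. HOXA9, the leukemia-associated member, read 7.42, 7.69, 7.41 and 7.98 CPM in MV4-11 and 25.3, 22.8, 21.9 and 24.7 CPM in KG-1a (log2 fold change -1.63, SE 0.07, adjusted p = 1.7e-12). HOXA10 was close in the lines, at 66.9 ± 4.49 CPM and 85.3 ± 3.53 CPM (log2 fold change -0.35, SE 0.05, adjusted p = 5.9e-06). HOXA11 was higher in MV4-11 (log2 fold change 2.84, SE 0.12, adjusted p = 1.1e-12).

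HOXA7 read 68.3, 65.6, 68.9 and 70.00 CPM in KG-1a and at most 0.0478 CPM in MV4-11, where 2 counts were seen in all, and HOXA3 averaged 26.4 ± 1.76 CPM in KG-1a with 0 counts in MV4-11 (at least 183-fold higher). Per kilobase of the deposited gene length, HOXA7 (33.9 ± 0.929 CPM per kb) and HOXA10 (26.8 ± 1.11) led the cluster in KG-1a, and HOXA10 (21.01 ± 1.41) and HOXA11 (5.22 ± 0.292) led it in MV4-11. In the HOXB cluster, HOXB2 averaged 32.6 ± 1.93 CPM in KG-1a and had 0 counts in MV4-11, whereas HOXB4 averaged 11.5 ± 0.682 CPM in MV4-11 and had 0 counts in KG-1a. Reads of HOXA9 and HOXA10 share a read-through transcript, and HOXB3 overlaps HOXB4, so the shares of these pairs depend on how reads were assigned.

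Of the cofactors, MEIS1 read 84.6, 85.1, 92.1 and 90.7 CPM in MV4-11 and 0 CPM in all 4 libraries in KG-1a (at least 599-fold higher in MV4-11). Its relative MEIS2 read 6.19, 5.19, 6.98 and 6.23 CPM in MV4-11 and 55.4, 55.3, 56.5 and 53.5 CPM in KG-1a (log2 fold change -3.17, SE 0.07, adjusted p = 1.2e-16). PBX3 was 2.56-fold higher in MV4-11 (log2 fold change 1.36, SE 0.05, adjusted p = 3.4e-13).

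**Figure D2:**
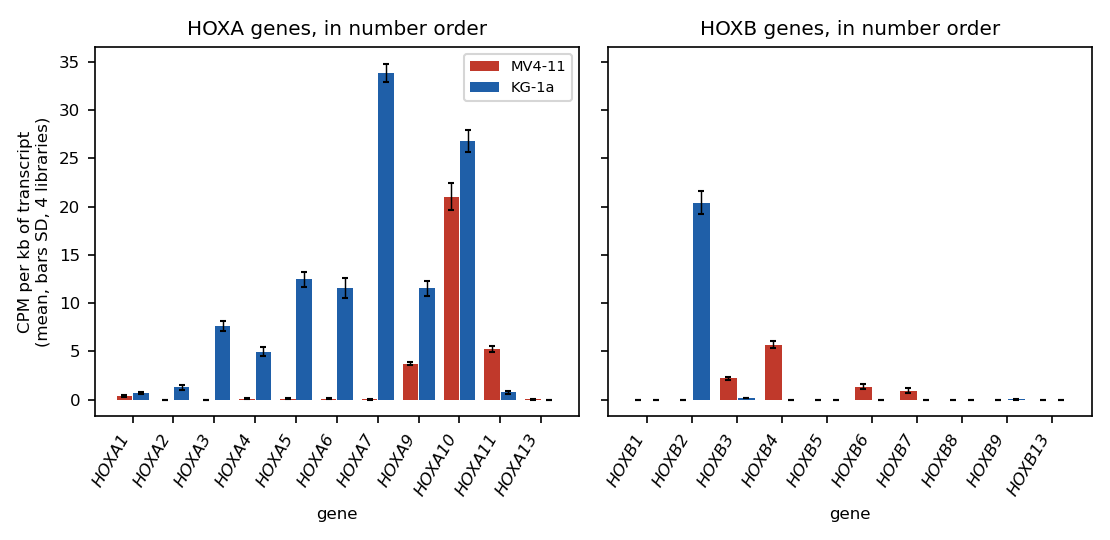
Mean CPM per kilobase of deposited gene length (vertical axis) of the HOXA genes (left) and HOXB genes (right) in number order, for MV4-11 (red) and KG-1a (blue), with error bars of 1 SD over 4 libraries. KG-1a was higher from HOXA2 to HOXA9 and in HOXB2, and MV4-11 was higher in HOXA11, HOXB3 and HOXB4.

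Genes of T and NK cells were read as markers of another lineage. Of 25 listed genes 17 were tested, and all passed the 2-fold test, 14 higher in KG-1a and 3 higher in MV4-11. The summed level ran from 753 to 837 CPM in KG-1a and from 566 to 590.5 CPM in MV4-11, where CD4 made up nearly all of it. CD3D read 255, 249.9, 246 and 252 CPM in KG-1a and 0 CPM in all 4 libraries in MV4-11. CD3E, another chain of the same complex, read 24.6, 24.01, 35.8 and 36.1 CPM in KG-1a and 0 CPM in all 4 libraries in MV4-11 (at least 209-fold higher). The kinase ZAP70 averaged 116 ± 9.69 CPM and the cytotoxic protease GZMA 94.1 ± 4.16 CPM in KG-1a.

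The set was partial in KG-1a. CD8B and GZMK had 0 counts in all 8 libraries, GNLY and CD5 were at or near 0 in both lines, and CD2 averaged 1.61 ± 0.305 CPM in KG-1a. CD7, an early T lineage antigen that is also seen on immature AML, averaged 32.8 ± 1.92 CPM in KG-1a and 0.0961 ± 0.00439 CPM in MV4-11 (log2 fold change -8.33, SE 0.13, adjusted p = 2.2e-18). LAT, a signalling adaptor of T cells, and IL7R, the interleukin-7 receptor, went with CD4 in being higher in MV4-11, with log2 fold changes of 3.02 and 4.63. IL2RG, the chain shared by several lymphocyte cytokine receptors, read 356, 348, 372 and 378 CPM in KG-1a and 0.614, 1.27, 1.15 and 1.38 CPM in MV4-11 (log2 fold change -8.34, SE 0.08, adjusted p = 4.7e-21). IL2RG was not on this list and was counted with the receptors. Whether the T and NK cell transcripts come from every KG-1a cell was not tested.

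Markers of other lineages were sparse. Of 16 B cell genes 7 were tested, 4 higher in KG-1a and 2 higher in MV4-11. IGLL1, part of the surrogate light chain, averaged 19.1 ± 1.28 CPM in MV4-11 and 216 ± 30.6 CPM in KG-1a (log2 fold change -3.49, SE 0.06, adjusted p = 3.3e-18), BANK1 averaged 0.216 ± 0.0480 CPM and 94.1 ± 5.21 CPM (log2 fold change -8.73, SE 0.09, adjusted p = 2.1e-20), and MS4A1 had 0 counts in all libraries. Of 20 erythroid and megakaryocyte genes only 4 were tested, 3 higher in KG-1a and 1 higher in MV4-11. EPOR, the erythropoietin receptor, was higher in MV4-11, at 13.97 ± 1.03 CPM against 1.94 ± 0.134 CPM (log2 fold change 2.84, SE 0.11, adjusted p = 1.4e-13). RHAG (215 CPM, at least 1491-fold higher) and ITGA2B (log2 fold change -5.63, SE 0.12, adjusted p = 6.5e-17) were higher in KG-1a while HBB, HBG1 and PF4 had 0 counts in both lines. Of 13 genes of tissues other than blood 2 were tested, KRT8 and KRT18, at 4.24 and 0.518 CPM in MV4-11. EPCAM and KRT19 had 0 counts in all 8 libraries. PTPRC, which encodes the leukocyte antigen CD45, read 80.4, 88.5, 105 and 112 CPM in MV4-11 and 715, 759, 742 and 731 CPM in KG-1a (log2 fold change -2.94, SE 0.06, adjusted p = 5.9e-17), so both lines carried this blood marker.

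**Figure D3:**
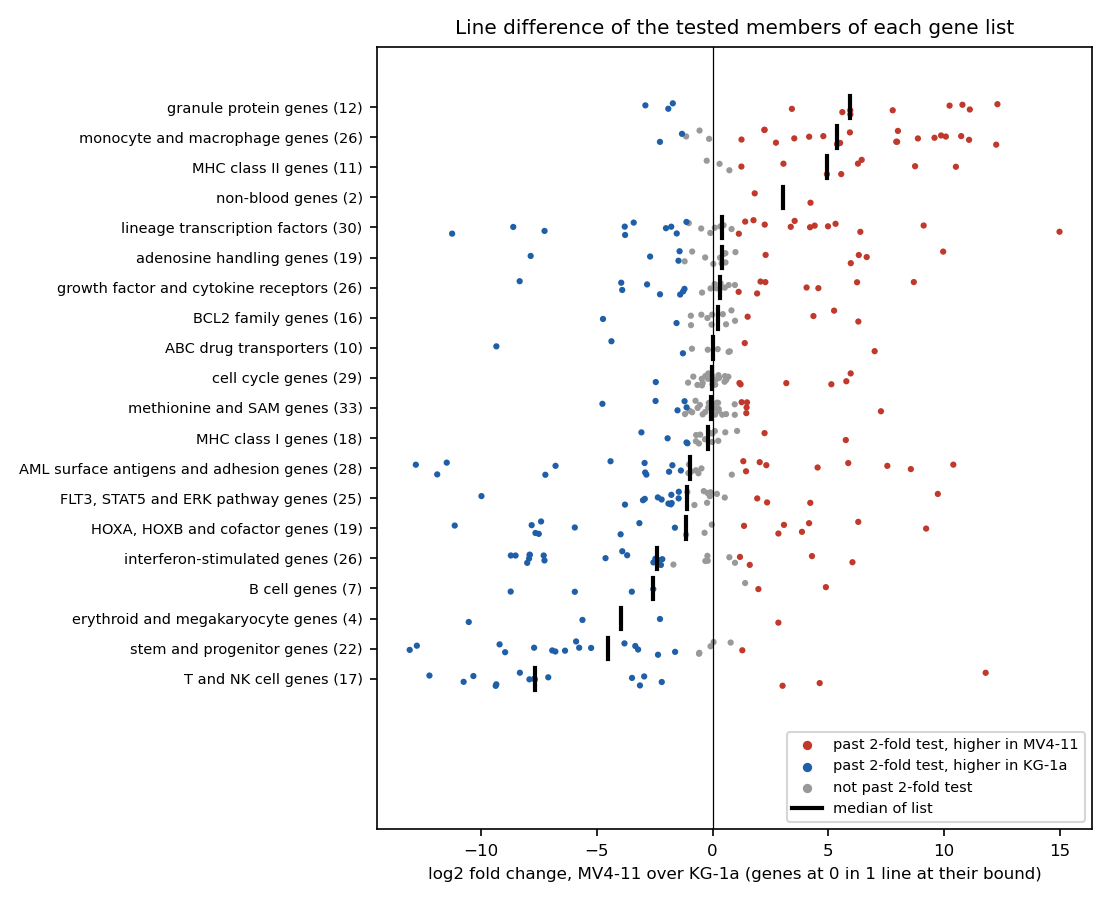
Log2 fold change of MV4-11 over KG-1a (horizontal axis) for each tested member of 20 gene lists, with the number tested in brackets, genes with 0 counts in a line at their bound and black bars at the list medians. Granule protein genes (median 5.95) and monocyte genes (5.39) lie on the MV4-11 side, T and NK cell genes (-7.69) and stem and progenitor genes (-4.53) on the KG-1a side.

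MHC class II molecules present peptides to helper T cells, and their genes depend on the coactivator CIITA and on a promoter unit that includes a CCAAT box. Of 17 listed genes 11 were tested, 8 were more than 2-fold higher in MV4-11 and 0 in KG-1a, with a median of 4.94. CD74, the invariant chain that guides class II molecules through the cell, read 218, 222, 209 and 210.5 CPM in MV4-11 and 0 CPM in all 4 libraries in KG-1a (at least 1463-fold higher). CIITA read 4.97, 6.98, 8.13 and 7.52 CPM in MV4-11 and 0.205, 0.0456, 0 and 0.0514 CPM in KG-1a (log2 fold change 6.44, SE 0.33, adjusted p = 6.3e-12). HLA-DRA averaged 11.4 ± 1.81 CPM in MV4-11 and had 0 counts in KG-1a (at least 77.7-fold higher).

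The DNA-binding partners of CIITA did not move together. RFXANK passed the 2-fold test, with 74.7 ± 3.61 CPM in MV4-11 and 31.6 ± 1.77 CPM in KG-1a (log2 fold change 1.24, SE 0.05, adjusted p = 2.8e-13). RFX5 averaged 110.1 ± 2.01 CPM in MV4-11 and 89.7 ± 6.23 CPM in KG-1a (log2 fold change 0.30, SE 0.04, adjusted p = 4.8e-06), and RFXAP 15.1 ± 1.64 CPM and 17.9 ± 1.53 CPM (log2 fold change -0.26, SE 0.09, adjusted p = 0.01). HLA-DMA, which loads peptides, averaged 6.60 ± 0.348 CPM and 0.133 ± 0.0566 CPM (log2 fold change 5.56, SE 0.22, adjusted p = 2.3e-13). HLA genes have close relatives, so reads may have been divided among them.

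The promoters of CD74 and HLA-DMA are shown for the CCAAT letters, in capitals on either strand. They lie in GRCh38.p14 at chr5:150412861-150413160, minus strand and chr6:32953048-32953347, minus strand.
CD74: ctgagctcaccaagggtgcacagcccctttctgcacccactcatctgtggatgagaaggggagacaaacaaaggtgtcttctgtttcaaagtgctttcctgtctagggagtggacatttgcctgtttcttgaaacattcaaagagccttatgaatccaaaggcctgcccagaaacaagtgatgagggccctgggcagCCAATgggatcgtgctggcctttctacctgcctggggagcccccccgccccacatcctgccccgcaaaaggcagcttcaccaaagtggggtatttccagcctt
HLA-DMA: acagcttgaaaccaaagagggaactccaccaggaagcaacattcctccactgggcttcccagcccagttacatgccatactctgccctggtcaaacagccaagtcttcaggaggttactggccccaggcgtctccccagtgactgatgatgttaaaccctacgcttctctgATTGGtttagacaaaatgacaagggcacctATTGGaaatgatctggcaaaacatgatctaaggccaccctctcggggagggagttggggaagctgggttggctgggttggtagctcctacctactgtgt
The CCAAT letters, read on both strands, occurred in 34.6% of all 35116 promoters. They occurred in 12 of the 15 genes of the class II list with a promoter sequence. That list also holds the regulators RFX5, RFXANK and RFXAP. The letters say nothing about which factor is bound in either line.

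Class I genes, which present peptides to cytotoxic T cells, went in both directions. Of 19 listed genes 18 were tested, 2 were more than 2-fold higher in MV4-11 and 4 in KG-1a. HLA-B averaged 604 ± 22.3 CPM in MV4-11 and 414 ± 9.77 CPM in KG-1a (log2 fold change 0.55, SE 0.03, adjusted p = 1.0e-10). HLA-C gave 119 ± 3.38 CPM and 119.9 ± 4.13 CPM (log2 fold change -0.02, SE 0.04, adjusted p = 0.72).

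Interferon-stimulated genes, which antiviral signalling turns on, were mostly higher in KG-1a. Of 27 listed genes 26 were tested, 16 were more than 2-fold higher in KG-1a and 4 in MV4-11, with a median of -2.39. RSAD2, or viperin, read 0.870, 0.896, 1.24 and 0.830 CPM in MV4-11 and 243, 252, 222 and 214 CPM in KG-1a (log2 fold change -7.91, SE 0.08, adjusted p = 6.8e-21). GBP1, a guanylate-binding protein, averaged 37.3 ± 3.48 CPM in KG-1a and had 0 counts in MV4-11 (at least 259-fold higher). The 4 exceptions were MX2, XAF1 and TRIM22, with log2 fold changes of 6.04, 1.60 and 1.18, and OASL, which averaged 0.830 ± 0.0621 CPM in MV4-11 and 0.0356 ± 0.0442 CPM in KG-1a.

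The receptor kinases for which the lines are known were read together with other growth factor and cytokine receptors. FLT3, the receptor kinase of early myeloid and lymphoid cells, read 423, 437, 494 and 496 CPM in MV4-11 and 0.154, 0.410, 0.667 and 0.926 CPM in KG-1a (log2 fold change 9.73, SE 0.10, adjusted p = 1.0e-20). FGFR1 read 8.75, 6.93, 9.38 and 8.07 CPM in MV4-11 and 133, 123, 125 and 132 CPM in KG-1a (log2 fold change -3.95, SE 0.07, adjusted p = 3.6e-18), and FGFR1OP2 averaged 30.9 ± 2.19 CPM and 81.7 ± 2.85 CPM (log2 fold change -1.40, SE 0.05, adjusted p = 1.2e-13). Gene counts do not separate a fusion transcript from the normal one. The receptor list held FGFR1 and FGFR1OP2 but not FLT3. Of its 31 genes 26 were tested, with 8 more than 2-fold higher in MV4-11 and 8 in KG-1a.

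CSF2RB, the common beta chain of the GM-CSF, IL-3 and IL-5 receptors, averaged 70.7 ± 2.995 CPM in MV4-11 and 0.932 ± 0.103 CPM in KG-1a (log2 fold change 6.24, SE 0.08, adjusted p = 2.8e-19). IL2RA averaged 48.1 ± 1.70 CPM and 0.109 ± 0.0185 CPM (log2 fold change 8.70, SE 0.12, adjusted p = 4.2e-19). CSF2RA was listed at 0 and CD99 near 0 in all libraries, and since both lie in the region shared by the X and Y chromosomes, where reads can map to 2 places, their low counts are not read as absence of expression.

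A list of FLT3, STAT5 and ERK pathway genes held 26 genes, FLT3 and its ligand FLT3LG included. Of these 25 were tested, with 12 more than 2-fold higher in KG-1a and 4, FLT3 among them, in MV4-11. The STAT5 gene STAT5A averaged 40.7 ± 1.87 CPM in MV4-11 and 188 ± 13.8 CPM in KG-1a (log2 fold change -2.20, SE 0.04, adjusted p = 1.3e-17). Among targets of STAT5, PIM1 (-1.46) was higher in KG-1a and SOCS2 (2.35) and PIM3 (1.93) were higher in MV4-11 on the log2 scale. SOCS1, SOCS3 and OSM of the same list were also higher in KG-1a. Their raw counts per library were 36 to 58, 102 to 118 and 149 to 172 in MV4-11. In KG-1a they were 293 to 428, 323 to 422 and 454 to 734. SPRY1, a feedback inhibitor of receptor kinases, averaged 30.6 ± 0.469 CPM in KG-1a and had 2 counts in all in MV4-11. DUSP6, a phosphatase of ERK, gave 31.97 ± 4.61 CPM and 37.7 ± 2.76 CPM (log2 fold change -0.24, SE 0.06, adjusted p = 0.0022).

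Surface antigens used to target AML differed in 21 of 28 tested genes by more than 2-fold, 12 higher in KG-1a and 9 in MV4-11. CD33, a target of antibody therapy, read 111, 112, 116 and 104 CPM in MV4-11 and 0.462, 0.501, 1.000 and 0.360 CPM in KG-1a (log2 fold change 7.55, SE 0.11, adjusted p = 8.7e-19). CXCR4, which retains cells in the bone marrow, averaged 108 ± 5.10 CPM and 4.65 ± 0.624 CPM (log2 fold change 4.54, SE 0.07, adjusted p = 1.5e-18). CD70 averaged 55.7 ± 2.01 CPM in MV4-11 and had 0 counts in KG-1a (at least 379-fold higher), and CD44 was higher in KG-1a by less than 2-fold (log2 fold change -0.48, SE 0.03, adjusted p = 1.0e-10).

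Genes tied to the study's drugs were compared next, since their untreated levels are the starting point of the treated libraries. BCL2, the target of venetoclax and an inhibitor of apoptosis, read 253, 255, 284 and 287 CPM in MV4-11 and 274, 286, 278 and 273 CPM in KG-1a. The libraries overlapped and the difference was not called (log2 fold change -0.05, SE 0.04, adjusted p = 0.28). The call depended on the setting, with log2 fold changes of -0.16 by library size alone (adjusted p = 7.7e-04), -0.15 in the 8 h libraries (adjusted p = 0.0079) and 0.05 in the 24 h libraries (adjusted p = 0.18). MCL1, a relative that can replace BCL2, averaged 248 ± 10.9 CPM and 183 ± 7.24 CPM (log2 fold change 0.44, SE 0.04, adjusted p = 1.2e-08), and BCL2L1, which encodes BCL-XL, 29.00 ± 0.798 CPM and 55.5 ± 3.19 CPM (log2 fold change -0.94, SE 0.05, adjusted p = 1.2e-11).

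Of 18 BCL2 family genes 16 were tested, 4 were more than 2-fold higher in MV4-11 and 2 in KG-1a. The inhibitor BCL2A1 averaged 3.85 ± 0.482 CPM in KG-1a and had 0 counts in MV4-11. The death effector BAX averaged 136 ± 6.68 CPM and 47.8 ± 1.88 CPM (log2 fold change 1.51, SE 0.04, adjusted p = 8.7e-16), and BBC3, which encodes PUMA, 11.1 ± 0.626 CPM and 0.539 ± 0.0702 CPM (log2 fold change 4.36, SE 0.14, adjusted p = 1.4e-14). BCL2L11, which encodes BIM, gave 36.9 ± 1.99 CPM and 37.4 ± 1.39 CPM (log2 fold change -0.02, SE 0.05, adjusted p = 0.72). The BIM relative BIK averaged 5.59 ± 0.850 CPM in MV4-11 and had 0 counts in KG-1a.

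MAT2A, the enzyme that makes S-adenosylmethionine (SAM) from methionine, read 703, 713, 679 and 651 CPM in MV4-11 and 512, 519, 515 and 512 CPM in KG-1a. All MV4-11 libraries lay above all KG-1a libraries, and the difference was called without reaching 2-fold (log2 fold change 0.42, SE 0.03, adjusted p = 8.5e-10). Its regulatory subunit MAT2B averaged 90.05 ± 7.14 CPM and 46.4 ± 2.95 CPM (log2 fold change 0.95, SE 0.06, adjusted p = 1.3e-10), and METTL16, the methyltransferase that controls MAT2A splicing, 93.5 ± 2.74 CPM and 78.6 ± 4.42 CPM (log2 fold change 0.25, SE 0.04, adjusted p = 1.8e-05).

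Of 37 methionine and SAM genes 33 were tested, 5 were more than 2-fold higher in MV4-11 and 5 in KG-1a, with a median of -0.08. The DNA methyltransferase DNMT3B read 10.9, 12.1, 13.7 and 13.7 CPM in MV4-11 and 348, 331, 342 and 348 CPM in KG-1a (log2 fold change -4.76, SE 0.05, adjusted p = 2.8e-20). Its relative DNMT3A was higher in MV4-11 (log2 fold change 1.47, SE 0.07, adjusted p = 1.9e-12). CBS, which draws homocysteine into cysteine synthesis, read 21.4, 21.7, 24.4 and 23.5 CPM in MV4-11 and 0 CPM in all 4 libraries in KG-1a (at least 155-fold higher). AHCY, which hydrolyses S-adenosylhomocysteine, averaged 343 ± 5.76 CPM and 229.8 ± 9.82 CPM (log2 fold change 0.58, SE 0.03, adjusted p = 7.3e-11), and MTAP, which salvages methionine, 87.4 ± 3.57 CPM and 146 ± 4.80 CPM (log2 fold change -0.74, SE 0.04, adjusted p = 1.9e-11).

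Adenosine analogs enter cells through nucleoside transporters and are phosphorylated by kinases. SLC29A1, the main equilibrative transporter, gave 125, 129, 118 and 115 CPM in MV4-11 and 134, 127, 108 and 110.4 CPM in KG-1a, the libraries overlapped and no difference was called (log2 fold change 0.03, SE 0.04, adjusted p = 0.49). Its call depended on the setting, with -0.09 by library size alone (adjusted p = 0.042) and 0.09 in the 24 h libraries (adjusted p = 0.049). SLC29A2, a second equilibrative transporter, read 0.205, 0.283, 0.144 and 0.415 CPM in MV4-11 and 64.2, 62.1, 60.8 and 64.9 CPM in KG-1a (log2 fold change -7.87, SE 0.12, adjusted p = 8.2e-19). SLC28A3, a concentrative transporter, averaged 9.22 ± 1.86 CPM in MV4-11 and had 0 counts in KG-1a (at least 62.8-fold higher).

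The kinases differed by less than 2-fold. Adenosine kinase, ADK, averaged 105 ± 1.78 CPM in MV4-11 and 71.5 ± 4.11 CPM in KG-1a (log2 fold change 0.55, SE 0.04, adjusted p = 1.7e-09), and deoxycytidine kinase, DCK, 76.9 ± 3.95 CPM and 96.3 ± 7.43 CPM (log2 fold change -0.32, SE 0.05, adjusted p = 1.2e-05). Adenosine deaminase, ADA, which inactivates adenosine, averaged 63.1 ± 1.23 CPM and 176 ± 20.1 CPM (log2 fold change -1.48, SE 0.05, adjusted p = 5.4e-14). SAMHD1, which degrades deoxynucleotides, read 229, 229, 256 and 247 CPM in MV4-11 and 2.57, 2.10, 2.57 and 2.26 CPM in KG-1a (log2 fold change 6.66, SE 0.06, adjusted p = 3.3e-21). Of 25 listed genes 19 were tested, with 5 more than 2-fold higher in MV4-11 and 4 in KG-1a.

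Of 10 tested genes of drug transport, 3 export pumps were higher in KG-1a, and the pump ABCC2 and the vault gene MVP were higher in MV4-11. ABCB1, the multidrug pump P-glycoprotein, read 89.5, 90.1, 98.3 and 98.1 CPM in KG-1a and 0 CPM in all 4 libraries in MV4-11 (at least 652-fold higher in KG-1a). ABCC1 averaged 62.6 ± 4.36 CPM and 153 ± 6.76 CPM (log2 fold change -1.28, SE 0.05, adjusted p = 2.2e-13), and ABCG2, a pump of stem cells, 2.99 ± 0.375 CPM in KG-1a with 0 counts in MV4-11 (at least 20.7-fold higher). MVP, the major vault protein, was higher in MV4-11, at 44.6 ± 4.37 CPM against 0.343 ± 0.0468 CPM (adjusted p = 1.1e-18).

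CDKN1A, the cell cycle inhibitor p21, read 80.7, 80.2, 78.4 and 86.2 CPM in MV4-11 and 5.44, 5.28, 5.67 and 4.73 CPM in KG-1a (log2 fold change 3.94, SE 0.06, adjusted p = 2.5e-18). The groups did not overlap, and all MV4-11 libraries were the higher ones. Cell cycle genes drive DNA replication and division, and the list of them read here did not hold CDKN1A. Of 29 tested genes 22 did not pass the 2-fold test, 6 were higher in MV4-11 and 1 in KG-1a, with a median of -0.01. The proliferation marker MKI67 averaged 1044 ± 59.04 CPM in MV4-11 and 1187 ± 40.4 CPM in KG-1a (log2 fold change -0.19, SE 0.04, adjusted p = 2.8e-04). CDKN2A, which encodes the inhibitors p16 and ARF, averaged 70.6 ± 3.44 CPM and 1.12 ± 0.128 CPM (log2 fold change 5.97, SE 0.08, adjusted p = 2.7e-19), and CDKN2C, which encodes p18, was higher in KG-1a (log2 fold change -2.46, SE 0.04, adjusted p = 2.5e-18).

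**Figure D4:**
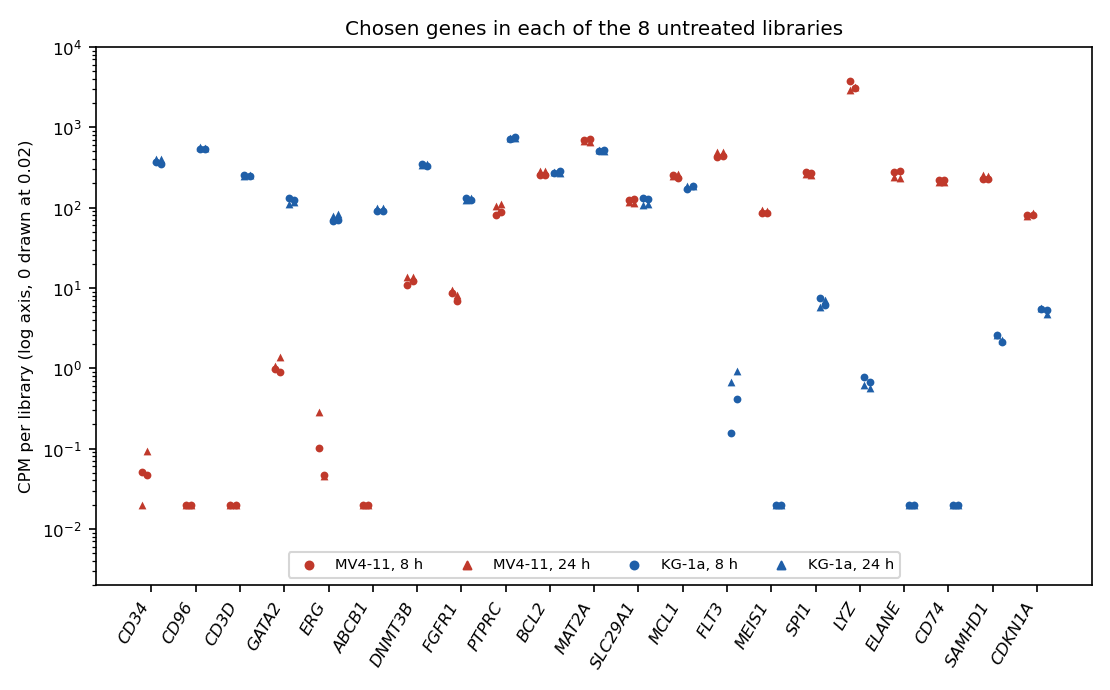
CPM of 21 chosen genes (horizontal axis) in each of the 8 untreated libraries on a log axis, with 0 drawn at 0.02, MV4-11 in red, KG-1a in blue, circles for 8 h and triangles for 24 h. CD34 to PTPRC lie higher in KG-1a, BCL2 and SLC29A1 overlap, and FLT3 to CDKN1A lie higher in MV4-11.

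The differences were also laid out along the chromosomes, using 8903 genes with a mean of 5 CPM or more in both lines, so that genes silent in a line did not enter. Over these genes the median log2 fold change was 0.00534, and 50.3% were higher in MV4-11. Chromosome medians lay between -0.168 and 0.285 except on chromosomes 11 and 19, where they were -0.628 over 523 genes and 0.415 over 661 genes. Of 263 windows of 10 Mb with at least 10 such genes, 20 had a median above 0.5 and 17 a median below -0.5. Copy number was not measured in these libraries, and its part in these medians was not tested. The stretches below were picked after the window values were seen, so they are given as descriptions without a test.

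On chromosome 11, 316 of 360 genes starting between 50 and 140 Mb were higher in KG-1a (87.8%, median -0.86), against 79 of 163 genes (48.5%, median 0.04) in the first 50 Mb. On chromosome 17, 129 of 138 genes in the first 20 Mb were higher in MV4-11 (93.5%, median 1.01), against 207 of 405 genes (51.1%, median 0.02) on the rest. On chromosome 5, 101 of 110 genes between 130 and 160 Mb were higher in MV4-11 (91.8%, median 0.88), and on chromosome 7, 149 of 179 genes between 90 and 150 Mb were (83.2%, median 0.76). The first 130 Mb of chromosome 5 and the first 90 Mb of chromosome 7 had medians of 0.02 and -0.02. CD68 lies in the chromosome 17 stretch, and several KG-1a genes named above, CD3D and CD3E among them, lie in the chromosome 11 stretch. CD68 was under 5 CPM in KG-1a and the CD3 genes in MV4-11, so these genes did not enter the medians of their stretches.

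**Figure D5:**
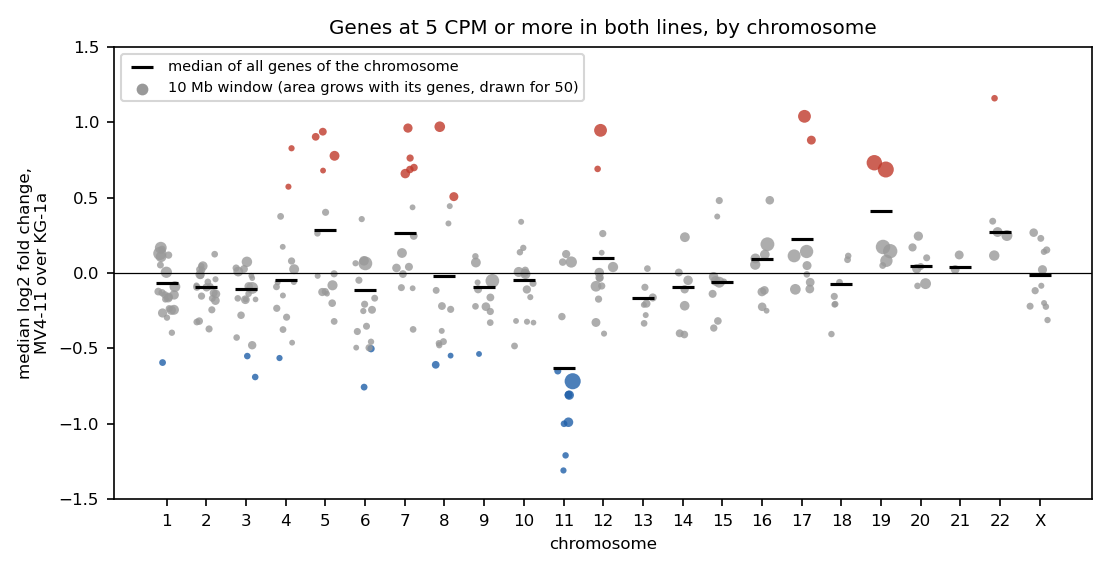
Median log2 fold change of MV4-11 over KG-1a (vertical axis) in windows of 10 Mb (points, area growing with the number of genes) and over whole chromosomes (black bars), for genes with 5 CPM or more in both lines. Red and blue points pass 0.5 in either direction, and chromosome 11 lies lowest with a median of -0.63.

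Neighbouring genes past the 2-fold test in the same direction formed 21 runs of 7 or more tested genes. In a run of 10 genes on chromosome 17 that was higher in MV4-11, 7 genes had 0 counts in all KG-1a libraries. USP22 (chromosome 17, 20902906 to 20947073) read 363, 365, 362 and 371 CPM in MV4-11 and 0 CPM in all 4 libraries in KG-1a (at least 2486-fold higher). Its neighbours DHRS7B, TMEM11, NATD1, MAP2K3 and C17orf51 averaged 15.9, 34.9, 5.19, 66.4 and 22.5 CPM in MV4-11, and all had 0 counts in KG-1a. ULK2 was the other gene at 0, whereas AKAP10 and SPECC1, which lie between ULK2 and USP22, were measured in KG-1a at 19.8 and 34.00 CPM. Positions are those of the deposited table.

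A run of 9 genes on chromosome 15, all at 0 in KG-1a, covers the imprinted Prader-Willi region, in which only the paternal copy is normally expressed. SNRPN (chromosome 15, 25068794 to 25244225) read 90.9, 92.04, 91.7 and 90.1 CPM in MV4-11 and 0 CPM in all 4 libraries in KG-1a (at least 620.3-fold higher). NDN averaged 31.6 ± 3.41 CPM and the noncoding RNA IPW 117 ± 3.56 CPM in MV4-11. SNRPN shares its transcript with SNURF and several of the listed noncoding genes, so these 9 entries are not 9 independent measurements. In KG-1a, 9 neighbouring genes of the HOXA cluster, its noncoding RNAs HOXA-AS3 and HOXA10-AS included, formed a higher run, and so did 7 genes on chromosome 1 that hold GBP1 to GBP5 and their neighbour LRRC8B.

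The line difference was then compared between the time points. The interaction of line and time was called by edgeR for 139 of 13554 tested genes (1.03%), against 1873 at an unadjusted p under 0.05. In 100 of the 139 the line difference was smaller at 24 h and in 39 it was larger. The genes with the smallest adjusted p, named after their values were seen, were SCD, ABCA1, DHCR7, ITGAL and FADS1. The line difference of SCD, a fatty acid desaturase, changed between the times by 0.61 ± 0.05 (SE) on the log2 scale (MV4-11 over KG-1a, 24 h minus 8 h, adjusted p = 2.1e-05), and DHCR7, a late enzyme of cholesterol synthesis, by 0.87 ± 0.08 (SE) (adjusted p = 4.7e-05). SCD read 700.5, 716, 1236 and 1299 CPM in MV4-11 and 988, 959, 1122 and 1157 CPM in KG-1a. When a single library was left out, the lone sample of that arm was assumed to vary like the others. The count of 139 moved by a ratio above 1.5 only for the left-out libraries given next. It was 253 without replicate B of MV4-11 at 8 h, 67 without replicate B of MV4-11 at 24 h, 66 without replicate B of KG-1a at 8 h, and 51 and 58 without replicates A and B of KG-1a at 24 h.

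The 16 treated libraries, which the comparison above did not use, were read for the same genes, a check chosen after the untreated values were seen. Of the 4876 genes past the 2-fold test, all kept the sign of the difference between the mean levels of the 8 treated MV4-11 and the 8 treated KG-1a libraries. In 4749 of them (97.4%) the treated libraries of the lines did not overlap, and in 4706 (96.5%) the 12 libraries of each line did not overlap over all treatments and times. Over all 13362 tested genes the same shares were 62.4% and 58.3%, in the direction of the untreated difference. The treated and untreated libraries come from the same 2 lines, so this is a repeat within the lines and not a test in other cultures.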

How the data were processed

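RNA sequencing of 24 libraries was deposited as a table of counts per gene, and the 8 untreated libraries of MV4-11 and KG-1a were used for the comparison. Per the labels, total RNA was taken with the QIAGEN RNeasy Micro Kit, and the submitters' processing notes name Trimmomatic, STAR 2.6.0, HTSeq 0.11.1, edgeR and the builds hg19 and hg38 without saying which build made the counts. Gene starts in the table lay within 10 kb of those in GRCh38.p14 for 1128 of 21885 matched symbols (5.15%), so deposited positions were not mixed with GRCh38.p14, from which RefSeq promoters were read. The sources used here do not say whether counting used strand, and a gene and an antisense partner cannot be told apart.

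The deposited counts are raw whole numbers. They were filtered with filterByExpr (minimum count 10), scaled by TMM and fitted in edgeR 4.0.16 (R 4.3.3) by quasi-likelihood with line and time point as terms. The 2-fold test was glmTreat against a log2 fold change of 1, the interaction of line and time was a separate fit, and the Benjamini-Hochberg threshold was 0.05. Folds of genes at 0 in a line were set against 3 counts per library, and intervals on few counts are exact Poisson intervals that cover counting error only. The 12 genes named per direction had a mean of 30 CPM or more in the higher line and the widest gap on the log2 scale between the lines' libraries. Replicate pairs differed beyond sampling noise (chi-square per degree of freedom 1.62 to 4.18), so none was counted as a duplicate. The fits were tested on simulated data, and DESeq2 1.42.0, other scalings, filters, designs and left-out libraries were tried as alternatives. The comparison, the 21 lists (514 genes) and the genes named from them were chosen with earlier results of these data known. Results of some genes and of 1 list are not reported here.

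With 2 libraries per line and time point, the interaction rests on few libraries. The replicate letters A and B were not treated as pairs.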

Additional observations from a re-analysis of the deposited data

Results flagged for a closer look

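Of the genes on the lists, 6 had a line difference that changed between 8 h and 24 h by the edgeR interaction test (adjusted p under 0.05). All values are log2 differences of MV4-11 over KG-1a, 24 h minus 8 h. ICAM1, an adhesion molecule, changed by 1.30 (SE 0.18, adjusted p = 0.0016), with 3.48, 3.02, 8.13 and 10.8 CPM in MV4-11 and 20.9, 20.9, 25.2 and 24.3 CPM in KG-1a. BMF, a death-promoting BCL2 relative, changed by 0.733 (adjusted p = 0.0016), with 28.8, 28.1, 34.1 and 37.03 CPM in MV4-11 and 45.4, 40.6, 31.6 and 32.97 CPM in KG-1a. ERAP2, a peptidase that trims class I peptides, changed by 0.619 (adjusted p = 0.019). ITGAL, an integrin chain of leukocytes, changed by 0.475 (adjusted p = 4.7e-05), PTPRC by 0.358 (adjusted p = 0.015) and TOP2A, a topoisomerase of dividing cells, by 0.212 (adjusted p = 0.028). With 2 libraries per line and time point, single outlying libraries could not be tested for.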

How the results depend on the processing

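The count of 4876 genes beyond 2-fold lay between 4429 (DESeq2) and 5612 (no filter on low counts) under the alternatives other than a filter of 10 counts in every library, which gave 2516 because it tested 2563 of the 4876. None of the 4876 changed sign in any setting that tested it. Leaving out a library gave 11614 to 11719 genes called and 4892 to 4945 beyond 2-fold. The interaction count of 139 became 492 without the filter on low counts, and ranged from 51 to 253 when a library was left out. With the replicate block, 11792 genes were called, 4975 beyond 2-fold and 95 in the interaction. Deviations of same-lettered libraries from their group means correlated across genes between -0.226 and 0.14. These values, which include genes with few counts, do not settle whether same-lettered libraries share a culture or preparation. Scaling by library size alone moved the median of all tested genes from 0.02 to -0.10 and the share higher in MV4-11 from 50.5% to 44.8%.

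Among the named genes, the sign of the log2 fold change turned in 13 refits. By library size alone SLC29A1 came to -0.0887 and TOP2A to -0.00755, and in the 8 h libraries SLC29A1 came to -0.0453 and TOP2A to -0.00971. By upper quartile scaling BCL2L11 came to 0.0207 and HLA-C to 0.0247. In the 24 h libraries BCL2 came to 0.0509, BMF to 0.143 and MNDA to 0.298. When a library was left out, BCL2L11 ranged from -0.0569 to 0.0129, HLA-C from -0.0382 to 0.00877 and MNDA from -0.278 to 0.0213. The cause was not tested. Beyond these, a named gene passed the threshold newly in 14 refits and no longer passed it in 7, and kept its sign and its side of the threshold in 2788, genes never called included. Depth limits genes under about 3 counts per library, 0.137 to 0.154 CPM.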

Other observations

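Other runs of neighbouring genes beyond 2-fold, named after their values were seen and given without a test, add gene groups that the lists did not hold. On chromosome 2, CFLAR, CASP10 and CASP8, which govern death receptor signalling, were in a run higher in KG-1a, with means of 310.4, 44.6 and 126 CPM there and 129, 16.6 and 26.8 CPM in MV4-11. On chromosome 11, the apoptosis inhibitors BIRC3 and BIRC2 averaged 45.9 ± 3.01 CPM and 85.5 ± 5.62 CPM in KG-1a (SD, n = 4). In MV4-11 they averaged 0.0605 ± 0.0600 CPM and 37.3 ± 2.21 CPM. Their run lies within the chromosome 11 stretch described above, where 316 of 360 genes were higher in KG-1a (median -0.86). On chromosome 19, runs of 7, 10 and 8 genes that hold mostly zinc finger genes were higher in KG-1a, and 4 genes of the run of 10 and 3 genes of the run of 8 had 0 counts in MV4-11. On chromosome 1, the kinase JAK1 averaged 360.3 ± 11.9 CPM in KG-1a and 122 ± 6.75 CPM in MV4-11, beside ROR1, a receptor of the same run, at 22.7 ± 0.813 CPM in KG-1a and 0 counts in MV4-11.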
